A study of Mus musculus with 24 samples.

Results

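The 9 membrane-bound adenylyl cyclases, Adcy1 to Adcy9, were followed across 7 mouse cell lines on whole-genome expression arrays. They were taken by name from the array's RefSeq transcripts, and were 9 of 45547 gene names, read by 13 of 56488 probes. The family was picked on the signal of Adcy2, which was already known to be low in 1 brain-derived melanoma line, DB#2 below. Adcy2 is therefore described without a test, and the tests below concern the other 8 genes. The B16F1-GFP-M cells (M, 3 arrays) are parental mouse melanoma cells that carry green fluorescent protein. The B16F1-GFP-D cells (D, 4 arrays) were recovered late in dormancy from syngeneic mice whose immunotherapy was vaccination with irradiated tumour cells that made GM-CSF. A further generation of these cells, taken from the brain site, gave B16F1-GFP-DB#1 (DB#1, 4 arrays), B16F1-GFP-DB#2 (DB#2, 3 arrays) and B16F1-GFP-DB#3 (DB#3, 3 arrays). M0 (4 arrays) and J365 (3 arrays) are labelled only as myeloid lines. The study's own myeloid model pairs parental leukemia cells with dormant cells from syngeneic mice vaccinated with irradiated cells that overexpressed interleukin-12. The labels do not state that M0 and J365 are these cells. All cells had been amplified in vitro, and the melanoma lines were grown as cultures in serum-containing medium, so no array measured a cell while it lay dormant in a mouse. Each DB line is a single line, so a value of DB#2 belongs to that line and not to brain-derived cells in general. The study says that its experiments were repeated, but no source used here ties each array to a separate culture, so p-values measure the spread between arrays, which may be technical.

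Adenylyl cyclases are integral membrane enzymes that turn ATP into the second messenger cyclic AMP (cAMP). All of them are switched on by the G protein subunit Gs downstream of hormone receptors, and they differ in what else they listen to. Adcy2, Adcy4 and Adcy7 are further stimulated by G protein beta-gamma subunits, Adcy1, Adcy3 and Adcy8 respond to calcium and calmodulin, Adcy5 and Adcy6 are inhibited by calcium and by Gi, and Adcy9 is only weakly sensitive to forskolin. In pigment cells cAMP carries the signal of the melanocortin receptor to protein kinase A and the transcription factor CREB, which raises Mitf and with it the pigment enzymes.

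Promoter sequence is shown for Adcy2 and Adcy4, relatives of the beta-gamma-stimulated class whose signals ran in opposite directions between the lines M and M0. For Adcy2 the melanoma line DB#2 was an exception. Both come from RefSeq on build GRCm38.p6, are read 5′ to 3′ on the gene's strand, and stop where the outermost annotated transcript of the gene starts. Capitals mark matches, on either strand, to any of the motifs TGACGTCA (the cAMP response element), TGACG (its shorter form, contained in the first), CATGTG and CACGTG (E-boxes) and GGGCGG (the GC box). The Adcy2 stretch is chr13:68999601-68999791 on the minus strand, and the Adcy4 stretch is chr14:55784096-55784322 on the minus strand.
Adcy2: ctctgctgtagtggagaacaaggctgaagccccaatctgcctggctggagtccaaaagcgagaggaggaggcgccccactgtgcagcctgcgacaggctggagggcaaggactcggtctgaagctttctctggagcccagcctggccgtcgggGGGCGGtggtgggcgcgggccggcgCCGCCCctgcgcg
Adcy4: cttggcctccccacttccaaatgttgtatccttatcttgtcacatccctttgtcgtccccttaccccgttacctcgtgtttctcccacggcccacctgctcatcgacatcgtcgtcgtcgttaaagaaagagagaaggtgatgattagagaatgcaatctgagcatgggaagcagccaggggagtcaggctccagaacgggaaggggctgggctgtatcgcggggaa
The 191 bases of Adcy2 were 69.1% G or C and held 2 GC boxes, one on each strand. The 227 bases of Adcy4 were 54.2% G or C and held none of the motifs. Over windows of 300 bases around annotated starts, the table gave 10 windows for 7 of the 9 genes, all but Adcy6 and Adcy8. GC boxes stood in 6 of the 10 windows, against 35.7% of all 32851 windows. The full cAMP response element stood in none of the 10, against 1.79% of all windows, and the short form stood in 2, those of Adcy7 and Adcy9, against 20.8%. CATGTG was in none (14.2% of all) and CACGTG was in that of Adcy1 alone (7.15% of all).

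Values are normalized log2 signals, the log2 of a probe's processed brightness less the log2 of the 75th percentile of its array, so that 0 is the brightness of that percentile and 1 unit is a 2-fold change. Levels are compared between lines for 1 probe, never between genes. A probe is called well above background where the scanner software marked it so. The melanoma and myeloid labels were checked against marker genes. The mean signal of 10 melanocyte genes was 5.42 to 6.24 on the 17 melanoma arrays, with all 10 well above background, and -5.36 to -5.10 on the 7 myeloid arrays. The mean of 12 blood cell genes was 0.60 to 1.19 on the myeloid arrays and at most -4.57 on 16 melanoma arrays. The remaining melanoma array, D replicate 3, stood apart. It had 90.3% of spots well above background, against 46.0 to 55.8% on the other 23, a blood marker mean of -2.48 with 11 of 12 genes above background, and a brain cell marker mean of -1.64 with 8 of 8 above background, against at most -3.17 and 4 to 5 of 8 on the other 16 melanoma arrays. D replicate 1 had the fewest spots above background, at 46.0%. In such bulk RNA, fewer cells of a type and less RNA per cell cannot be told apart.

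Among the beta-gamma-stimulated cyclases, Adcy2 was well above background in M, D, DB#1 and DB#3 and on no array of DB#2. Adcy2 is a cyclase best known from brain, and it was read here by a probe for the transcript NM_153534. The signals were -3.47, -3.20 and -2.46 in M, and -3.29, -3.30, -2.71 and -3.40 in D. The 4 DB#1 arrays read -3.91, -3.81, -3.49 and -3.07, and the 3 DB#3 arrays read -3.86, -3.41 and -2.997. All of these overlapped with one another. The 3 DB#2 arrays read -7.26, -7.24 and -7.27, below every other melanoma array and within the range where the probe is not well above background. The 4 M0 arrays (-6.90 to -6.76) and the 3 J365 arrays (-7.29 to -6.92) were not above background either, so DB#2, M0 and J365 have no order among themselves.

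Because the DB#2 signal is a bound, the fold is a bound too. Against each array's lowest signal that was well above background, Adcy2 was at least 4.12-fold lower in DB#2 than in M, with means of -3.04 for M, -5.08 for that floor and -7.26 for DB#2 as measured. Against D it was at least 3.75-fold lower. The fitted difference between DB#2 and M was -4.22 ± 0.26 (SE, 3 against 3 arrays) and that between DB#2 and D was -4.08 ± 0.24 (SE, 3 against 4 arrays). Each SE of Adcy2 pools the spread over all 7 lines, also those not above background. The SD was 0.02 in DB#2, 0.07 in M0 and 0.20 in J365, against 0.52 in M, 0.31 in D, 0.38 in DB#1 and 0.43 in DB#3. Each of the 3 slides held every line, and within the slides the differences were -4.78, -4.06 and -3.80 against M and -3.95, -4.55 and -3.87 against D. With normexp background correction, which adds an offset to all signals, the differences shrank to -1.26 against M and -1.21 against D. The difference between D and M was -0.13 ± 0.24 (SE), that between DB#1 and M was -0.53 ± 0.24, and that between DB#3 and M was -0.38 ± 0.26. These small differences moved with the scaling. With quantile normalization the difference between D and M was -0.67, and DB#1 and DB#3 lay above D, by 0.21 and 0.38, where they lay below it in the fit used here. The brain cell marker mean of the DB#2 arrays, -3.94 to -3.52, lay within the range of the other 13 melanoma arrays apart from D replicate 3, which was -4.01 to -3.17. The fibroblast marker mean of DB#2, -4.82 to -4.60 with 4 of 8 genes above background, reached above that of those 13 arrays, -5.61 to -4.68, and its part in the Adcy2 and Adcy6 signals was not tested.

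The other Adcy2 probe was dim everywhere. It was well above background on 3 of 17 melanoma arrays, 1 each of M, D and DB#1, and on none of DB#2, where it read -7.41 to -7.37. Its M arrays read -5.80 to -4.33. It passed the filter in no comparison, so it gives no second measure of the size.

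**Figure D1:**
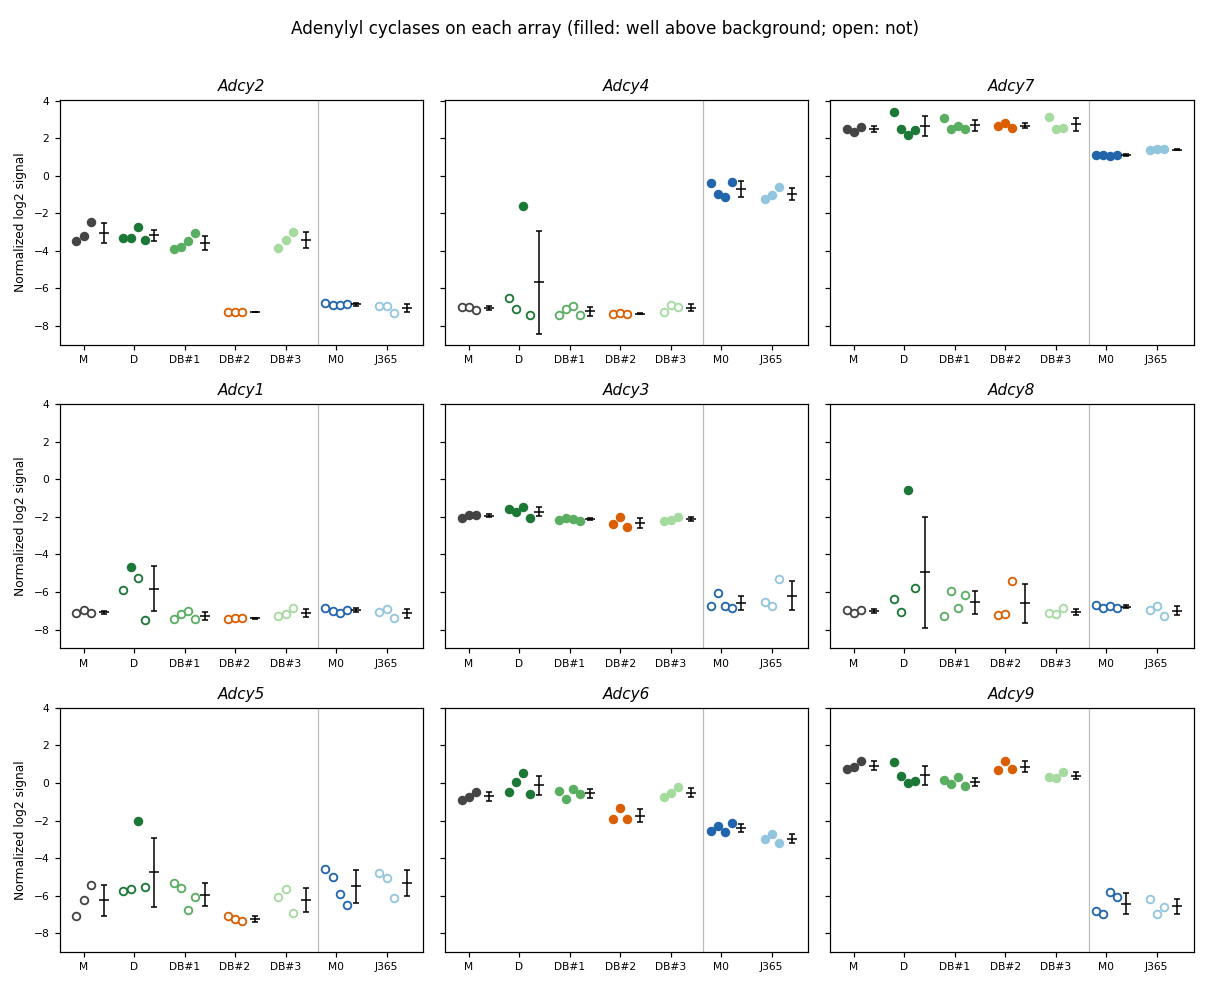
Normalized log2 signal (vertical axis) of the brightest probe of each cyclase on every array, by line (horizontal axis), with melanoma lines left of the grey line and myeloid lines right of it. Filled points are well above background, open points are not, and the black bars are the mean and SD of each line. The Adcy2 points of DB#2 sit at -7.27 to -7.24, with those of the myeloid lines, while the other melanoma points lie between -3.91 and -2.46.

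Adcy4 ran the other way between M and M0. It read -0.38, -0.98, -1.13 and -0.32 on the M0 arrays and -1.24, -1.03 and -0.60 on the J365 arrays, all well above background. In M it read -6.997, -6.97 and -7.15, none above background, and 16 of the 17 melanoma arrays were not well above background. The exception was D replicate 3 at -1.62. M0 was at least 18.4-fold higher than M, with means of -0.70 for M0, -4.90 for the floor and -7.04 for M as measured, and an adjusted p of 1.83e-06 (limma, Benjamini-Hochberg). J365 and M0 differed by -0.26 ± 0.85 (SE), and the 95% interval of the difference, -2.03 to 1.52, spans a large change either way. The fit pools the spread over lines, and the SD of this probe was 2.73 in D, where replicate 3 stood apart, against 0.41 in M0 and 0.33 in J365. The same D replicate 3 carried the raised blood and brain markers given above, and their part in its Adcy4 signal was not tested.

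Adcy7, a cyclase of blood and immune cells, was well above background on all 24 arrays. It ranged from 2.20 to 3.42 with a median of 2.56 over the 17 melanoma arrays, and from 1.06 to 1.44 over the 7 myeloid arrays, with no overlap. M exceeded M0 by 1.37 ± 0.22 (SE, adjusted p = 1.74e-05 with limma), and within slides by 1.24 to 1.49. Its mean was 2.48 ± 0.15 (SD, n = 3) in M and 2.67 ± 0.11 (SD, n = 3) in DB#2, where Adcy2 was not above background. The difference of 0.19 had a 95% interval of -0.29 to 0.68 (adjusted p = 0.890 with limma). J365 and M0 did not overlap, at 1.35 to 1.44 against 1.06 to 1.13, yet the difference of 0.29 ± 0.22 (SE) did not pass (adjusted p = 0.835 with limma). That SE pools the spread over all lines. The SD of the probe was 0.03 in M0 and 0.04 in J365, against 0.53 in D and 0.35 in DB#3. Within the slides the differences were 0.27, 0.35 and 0.23.

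Of the calcium-responsive cyclases, Adcy3 was well above background on all 17 melanoma arrays and on none of the 7 myeloid arrays. Adcy3 is the cyclase of olfactory neurons and of primary cilia. It read -2.05, -1.88 and -1.87 in M, -1.60, -1.74, -1.48 and -2.05 in D, and -2.40, -2.004 and -2.52 in DB#2. The DB#1 and DB#3 arrays lay between -2.22 and -1.99. M was at least 6.64-fold higher than M0 (means -1.93 for M, -4.67 for the floor and -6.60 for M0 as measured, adjusted p = 2.38e-12 with limma). DB#2 lay 0.59 below D, a difference of -0.59 ± 0.26 (SE) with an adjusted p of 0.197 (limma), and 1 of 3 DB#2 arrays overlapped with D. It passed the test with normexp background correction and with the replicate number as a block. Adcy1 and Adcy8, both enriched in brain, were each above background on a single array. For Adcy1 this was D replicate 2, at -4.69, while the other 16 melanoma arrays read -7.48 to -5.27. For Adcy8 it was D replicate 3, at -0.57, against -7.26 to -5.41 on the other 16. Their other probes were above background on no array. Neither gene passed the filter in any comparison.

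Adcy6, one of the Gi-inhibited pair, was lower in DB#2 than in M and D. It read -0.92, -0.76 and -0.45 in M, -0.48, 0.03, 0.52 and -0.58 in D, -0.43, -0.85, -0.33 and -0.58 in DB#1, and -0.76, -0.53 and -0.24 in DB#3. In DB#2 it read -1.91, -1.36 and -1.93, below each of the other 14 melanoma arrays. The M0 arrays read -2.55, -2.32, -2.61 and -2.11 and the J365 arrays -2.98, -2.70 and -3.20. From the highest line mean to the lowest, the order was D at -0.13, DB#3 at -0.51, DB#1 at -0.55, M at -0.71, DB#2 at -1.73, M0 at -2.39 and J365 at -2.96. The first 4 overlapped with one another, DB#2 overlapped with no other line, and M0 and J365 did not overlap.

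DB#2 was lower than M by a factor of 2.03, a log2 difference of -1.02 ± 0.25 (SE, adjusted p = 0.0217 with limma), and lower than D by a factor of 3.05, a difference of -1.61 ± 0.23 (SE, adjusted p = 0.000126 with limma). Within the 3 slides the differences were -0.90, -1.15 and -1.01 against M and -1.14, -2.43 and -1.35 against D. The call against M was lost when any of 4 of the 6 arrays was left out (M replicate 2 or 3, DB#2 replicate 1 or 3), with differences of -1.04 to -0.89 and adjusted p of 0.0677 to 0.128 (limma). It was also lost without scaling, without the filter on dim probes, and in a fit of the arrays of DB#2 and M alone. The call against D was kept when any of the 7 arrays was left out, and lost in a fit of the arrays of those lines alone (adjusted p = 0.0594 with limma). Adcy6 was higher in D than in M by 0.59 ± 0.23 (SE), which did not pass after adjustment (adjusted p = 0.239 with limma). The other Adcy6 probe was dim, above background on 11 of 17 melanoma and 1 of 7 myeloid arrays, and passed the filter in none of the comparisons. Adcy5, the closest relative of Adcy6, was above background on D replicate 3 alone, at -2.02, while the other 16 melanoma arrays ranged from -7.37 to -5.33 and the 7 myeloid ones from -6.52 to -4.56. The part of the raised markers of D replicate 3 in its Adcy5 and Adcy8 signals was not tested.

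Adcy9 was well above background on all melanoma arrays and on no myeloid array. It read 0.76, 0.83 and 1.19 in M, 0.68, 1.19 and 0.76 in DB#2, 1.14, 0.38, 0.03 and 0.09 in D, 0.15, -0.08, 0.30 and -0.18 in DB#1, and 0.33, 0.27 and 0.58 in DB#3. M and DB#2 thus overlapped, and differed by -0.05 with a 95% interval of -0.69 to 0.59. DB#1 and DB#3 lay below every M array. DB#1 was below M by a difference of -0.88 ± 0.29 (SE, adjusted p = 0.101 with limma), with -0.89, -0.68 and -0.89 within the 3 slides. That difference passed with normexp background correction and in a fit of the arrays of DB#1 and M alone. The differences were -0.53 ± 0.31 for DB#3 (adjusted p = 0.602 with limma) and -0.52 ± 0.29 for D (adjusted p = 0.484). M was at least 48.3-fold higher than M0, with means of 0.93 for M, -4.67 for the floor and -6.42 for M0 as measured (adjusted p = 8.77e-15 with limma).

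The counts over the 8 genes other than Adcy2 summarize these comparisons. Comparisons against M share the M arrays, and those against D share the D arrays. In each comparison among melanoma lines 4 of the 8 genes were tested (Adcy3, Adcy6, Adcy7 and Adcy9), since testing required a line of the pair with every array well above background. In DB#2 against M, 1 of 4 was called (Adcy6, lower), against 4.1% of all genes tested, and the median difference of the 4 was -0.21 against 0.0031 over all genes. In DB#2 against D, 1 of 4 was called (Adcy6, lower), against 7.8% of all genes, and 2 had an unadjusted p under 0.05. None of 4 was called by limma in D against M (3.57% of all genes called, 1 of the 4 with an unadjusted p under 0.05), DB#1 against M (4.31%, 1 of 4), DB#3 against M (3.14%, 0 of 4), DB#1 against D (0.48%, 0 of 4) and DB#3 against D (0.379%, 0 of 4). In M against M0 all 5 tested genes were called, Adcy3, Adcy6, Adcy7 and Adcy9 higher in M and Adcy4 higher in M0, against 60.1% of all genes, so that a call was common in that comparison. Adcy3 and Adcy9 entered it through M alone and Adcy4 through M0 alone, the line where each was high. Their calls and p-values are thus not independent of the filter. Adcy6 and Adcy7 were above background on every array of both lines. In J365 against M0 none of 3 was called (1.89% of all genes, 1 of 3 with an unadjusted p under 0.05). That gene was Adcy6, lower in J365, with a difference of -0.57 ± 0.24 (SE, adjusted p = 0.380 with limma). The change from M to D was set against that from M0 to J365, and 0 of 5 genes were called as differing (2.35% of all genes, 1 of 5 with an unadjusted p under 0.05). Adcy3 and Adcy9 were above background on no myeloid array. Adcy4 was above background on no M array and on D replicate 3 alone in D. For these genes the change in 1 model could not be read, so only Adcy6 and Adcy7 could be compared. For Adcy6 the changes differed by 1.15 ± 0.33 (SE), with an adjusted p of 0.0899 (limma), and the difference was called without D replicate 1 or without D replicate 4.

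**Figure D2:**
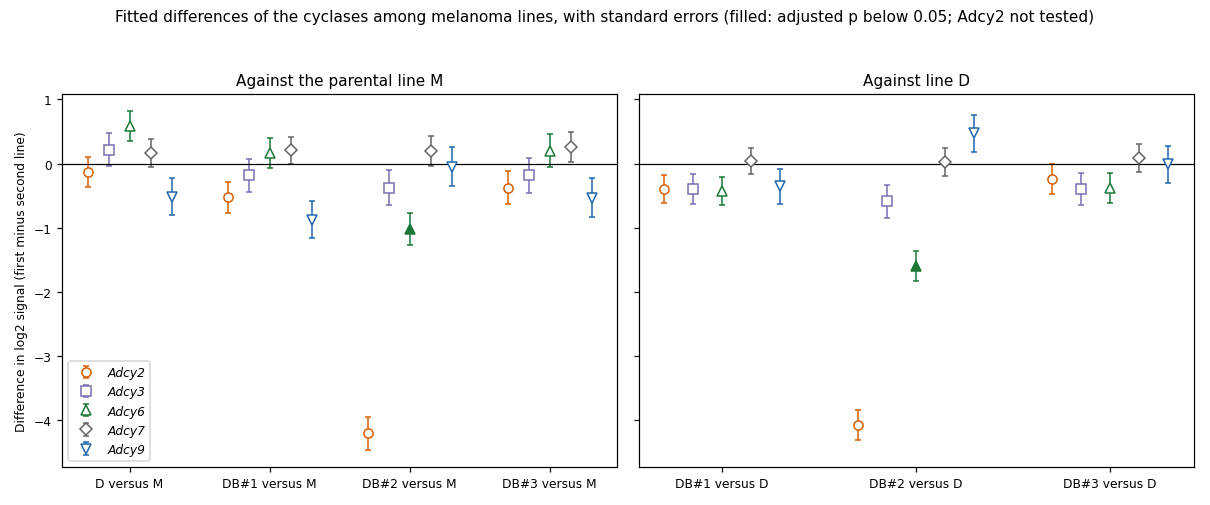
Fitted differences in log2 signal (vertical axis) of the 5 cyclases above background in melanoma cells, for each melanoma comparison (horizontal axis), with standard errors. Filled points have an adjusted p below 0.05, which Adcy6 alone reached, in DB#2 at -1.02 against M and -1.61 against D. Adcy2, at -4.22 and -4.08 in DB#2, was not tested.

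Genes near Adcy2 and genes with a like pattern were set beside it. In the RefSeq order of chromosome 13, the 3 nearest genes with a probe on one side were Mtrr, Fastkd3 and 1700001L19Rik, and on the other Tent4a, Srd5a1 and Nsun2, all protein-coding. None of the 5 tested neighbours was called by limma between DB#2 and M (0 of 5 with an unadjusted p under 0.05), where the differences ran from -0.36 for Srd5a1 to 0.12 for Nsun2. Against D all 5 were lower in DB#2, 3 had an unadjusted p under 0.05 (Fastkd3, Srd5a1 and Nsun2), and 1 was called, Nsun2 at -0.57 ± 0.17 (SE, adjusted p = 0.0486 with limma), where 7.8% of all genes were called. Tent4a, next to Adcy2, differed by -0.01 from M and -0.10 from D. 1700001L19Rik was not above background in DB#2 or M.

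**Figure D3:**
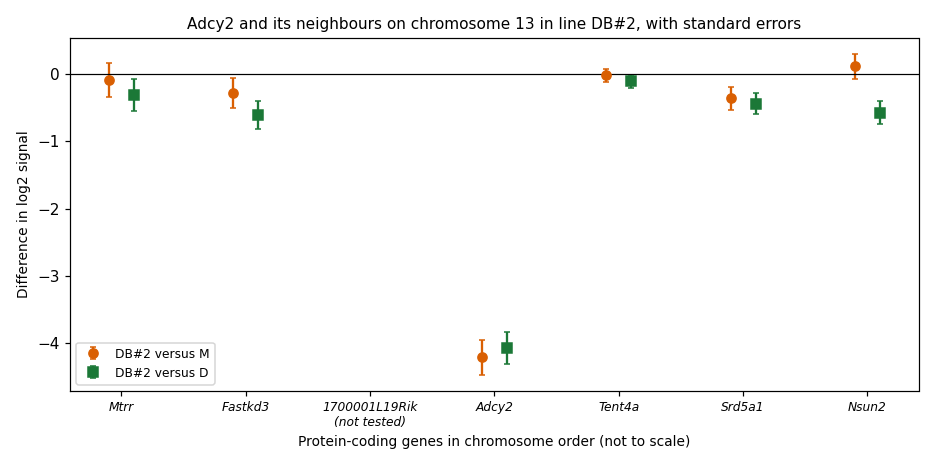
Difference in log2 signal (vertical axis) of DB#2 against M (circles) and against D (squares) for Adcy2 and its nearest genes with a probe, in chromosome order and not to scale, with standard errors. The tested neighbours lie between -0.61 and 0.12, and Adcy2 lies at -4.22 and -4.08.

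Over all 24 arrays, the 5 genes of 14311 whose signals were most correlated with that of Adcy2 were 1700030C10Rik (Pearson r = 0.973), Qpct (0.945), Gstm7 (0.939), Zfp536 (0.935) and Tln2 (0.933). The first 4 were above background on no array of DB#2, M0 or J365 and on every array of M, D, DB#1 and DB#3, as Adcy2 was. Tln2 was above background throughout, with a mean of 1.68 in M and 0.72 in DB#2. Over the 17 melanoma arrays the leading genes were Chn2 (r = 0.959), Itgb5 (0.955), 1700030C10Rik (0.945), Rpp21 (0.943) and Kif26b (0.939). Chn2, a Rac-directed GTPase-activating protein, had a mean of 0.68 in M and -2.36 in DB#2, and Itgb5, an integrin subunit, 1.23 and -1.77. These are descriptions over arrays that share slides and lines. Over the 24 arrays the low values of Adcy2 are those of DB#2, M0 and J365, and over the 17 melanoma arrays they are those of DB#2.

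The rest of the cAMP pathway was read from 8 lists that held 111 genes, 109 of them on the array. In DB#2 against M, 6 of 82 tested genes were called, 3 higher and 3 lower, against 4.1% of all genes, and the median of the list was 0.03 against 0.0031 over all genes. In D against M 6 of 81 were called (3 higher, 3 lower, 3.57% of all genes), in DB#1 against M 7 of 83 (5 higher, 2 lower, 4.31%) and in DB#3 against M 6 of 85 (4 higher, 2 lower, 3.14%). In DB#2 against D 13 of 83 were called, 6 higher and 7 lower, against 7.8% of all genes. In J365 against M0 limma called 0 of 72, with 10 at an unadjusted p under 0.05 (1.89% of all genes called), and in M against M0 66 of 88, 30 higher and 36 lower in M (60.1%). The counts of single lists below are to be read against the same shares.

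Some of these counts moved with the fit. D against M gave 3 calls without M replicate 2, M replicate 3 or D replicate 2, 3 with quantile normalization, without scaling, without the filter or with the variance prior over all genes, 2 in a fit of its own arrays alone, and 8 of 83 without D replicates 1 and 3. DB#2 against D gave 8 without DB#2 replicate 3, 7 with normexp or without the filter, 5 in a fit of its own arrays alone, and 13 of 83 without D replicates 1 and 3. With slide as a block the counts were 9 in D, 10 in DB#1, 9 in DB#2 and 8 in DB#3 against M, 18 in DB#2 against D, and 4 in J365 against M0 (Rapgef3, Rgs2, Crtc1 and Crebbp). That block added Pde4d in D and DB#3, Calcrl in DB#1, Rgs2 in DB#2 and DB#3, Crebbp in D and Crtc2 in DB#2 to the genes called against M, among others, and left the calls of the cyclases as they were.

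Upstream of the cyclases, the G protein subunits were read by a list of 16 genes, and of the 13 tested against M limma called 1 in D (lower) and 2 in each brain-derived line (1 higher, 1 lower). Gng11, a gamma subunit, was higher than M in the 3 brain-derived lines, by 1.19 ± 0.21 in DB#1, 1.80 ± 0.22 in DB#2 and 1.33 ± 0.22 in DB#3 (SE, adjusted p = 0.000996, 2.09e-05 and 0.000721 with limma). Its 10 brain-derived arrays read 3.28 to 4.19 and the M arrays 2.21, 1.94 and 2.48, with no overlap. Gngt2, a transducin-type gamma subunit, was lower than M in all 4 derived lines, by a difference of -1.08 in D, -2.35 in DB#1, -2.36 in DB#2 and -0.99 in DB#3. Its M arrays read -1.59, -1.10 and -1.14, above every array of the derived lines, and its myeloid arrays read 1.60 to 2.02. The Gngt2 call in DB#3 (adjusted p = 0.0395 with limma) held when M replicate 1 was left out and failed for each of the other 5 arrays, and it failed under 7 of 11 other alternatives. Its call in D failed without M replicate 2 or M replicate 3, without scaling and in a fit of D and M alone.

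Of the receptors coupled to Gs, few could be read in melanoma cells, with 8 to 12 of 23 tested. Against M, 2 of 8 were called lower in D, 0 of 9 in DB#1 (3 at an unadjusted p under 0.05), 0 of 9 in DB#2 (0) and 1 of 12, lower, in DB#3 by limma. Vipr2, a receptor of vasoactive intestinal peptide, was lower in D than in M with a difference of -0.90 ± 0.24, and Calcrl, the receptor of adrenomedullin and calcitonin gene-related peptide, with one of -0.92 ± 0.24 (SE, adjusted p = 0.0379 and 0.0378 with limma). The Calcrl arrays of D and M overlapped. Leaving out 1 array ended the Vipr2 call for 4 of 7 arrays (M replicate 2 or 3, D replicate 2 or 4) and the Calcrl call for 5 of 7 (all but M replicate 2 and D replicate 1). Each was also lost under 7 of the 12 other alternatives, among them quantile normalization, normexp, no scaling and no filter on dim probes. Calcrl, named here after its values were seen, was also lower in DB#3 than in M, with 2 of 3 DB#3 arrays above background, by a difference of -1.16 ± 0.26 (SE, adjusted p = 0.0116 with limma), a call lost without M replicate 1, M replicate 3 or DB#3 replicate 4, with quantile normalization, with normexp or in a fit of that pair alone. Ptgir, the prostacyclin receptor, was likewise singled out after its values were seen. It read -3.07, -4.20, -3.75 and -4.12 in D and was not above background in DB#2 (-5.61, -6.57 and -7.16), which gives at least 2.46-fold lower in DB#2 than in D. The difference was called by limma, but Ptgir entered that test only through D, so the call is a description only. That call was lost with quantile normalization and with normexp.

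The phosphodiesterases break cAMP down, and of 11 tested against M limma called 0 in D (1 at an unadjusted p under 0.05), 1 in DB#1, 2 in DB#2 and 0 in DB#3 (2 unadjusted), all lower. Among them Pde4d was lower than M by a difference of -1.05 ± 0.22 in DB#1 and -1.02 ± 0.24 in DB#2 (SE, adjusted p = 0.00596 and 0.0149 with limma). Its M arrays read -1.67, -1.87 and -1.32 and its DB#2 arrays -2.70, -2.46 and -2.74. The DB#1 call was lost without M replicate 3 and with quantile normalization. The DB#2 call was lost without M replicate 3, DB#2 replicate 1 or DB#2 replicate 3, with quantile normalization, without scaling and without the filter on dim probes. Its 3 tested probes ran the same way, from -1.05 to -0.47 in DB#1. Pde8b, singled out after its values were seen, was above background on every array of M, D, DB#1 and DB#3 and on no myeloid array. It read -3.69, -3.53 and -2.99 in M and was not above background in DB#2 (-6.87, -5.27 and -5.42), which gives at least 3.20-fold lower in DB#2 than in M. Against D it was at least 2.42-fold lower. Both differences were called by limma, but Pde8b entered these tests only through M and D, where it was high. Picked after its values were seen, it gives calls that are descriptions only. Both calls were lost in a fit of the arrays of each pair alone, and that against D also with quantile normalization and with normexp.

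Downstream, the regulatory subunit gene of protein kinase A Prkar1b, also singled out after its values were seen, was above background on no M array (-5.09, -6.19 and -6.49) and on every array of D, DB#1, DB#2 and DB#3. D was at least 3.09-fold higher than M, DB#1 at least 4.05-fold, DB#2 at least 1.51-fold and DB#3 at least 5.94-fold. All 4 differences were called by limma, but Prkar1b entered these tests only through the derived lines, where it was high. Since the gene was picked after its values were seen, the calls are descriptions only. The DB#2 call was lost without M replicate 2, M replicate 3 or DB#2 replicate 1, with quantile normalization, with normexp, and in a fit of the arrays of DB#2 and M alone. The D call was lost with quantile normalization. No other gene of the list of 9 protein kinase A subunits and inhibitors was called against M in any of the 4 lines. Of the anchoring proteins limma called 0 of 9 in D (2 at an unadjusted p under 0.05), 1 of 10 in DB#1, 0 of 9 in DB#2 (0) and 1 of 9 in DB#3. The called gene was Akap12, an anchoring protein that scaffolds protein kinase A and receptors, which was higher than M by 1.28 ± 0.25 in DB#1 and 1.74 ± 0.27 in DB#3 (SE, adjusted p = 0.00345 and 0.000344 with limma). In DB#2 it read 0.67, 0.90 and 0.53 against 0.20, 0.46 and 0.44 in M, and was not called.

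Of 12 tested genes on the list of other effectors and cyclase regulators, limma called 1 in D, 2 in DB#1, 0 in DB#2 (4 at an unadjusted p under 0.05) and 1 in DB#3 against M, all higher. Hcn3, of the hyperpolarization-activated cyclic nucleotide-gated channel family, was called in each of D, DB#1 and DB#3, and its response to cAMP was not measured. It read -3.50, -4.04 and -3.57 in M, -2.38 to -2.004 in D, -2.56 to -2.25 in DB#1 and -1.92 to -1.58 in DB#3. In DB#2 it read -4.60, -3.55 and -4.43, overlapping M. D was higher than M by 1.52 ± 0.20, DB#1 by 1.31 ± 0.20 and DB#3 by 1.91 ± 0.21, while DB#2 was lower than D with a difference of -2.01 ± 0.20 (SE, adjusted p = 5.31e-05, 0.000173, 4.73e-06 and 7.28e-07 with limma). These 4 calls held in each alternative run. Rgs2, a regulator of G protein signalling, was higher in DB#1 than in M by 0.81 ± 0.20 (SE, adjusted p = 0.0186 with limma), and the call was lost when any of 4 of the 7 arrays was left out (M replicate 1 or 2, DB#1 replicate 1 or 3), with quantile normalization, with normexp and without the filter.

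Of 9 tested early CREB target genes, limma called 1, higher, in D and 1, higher, in DB#2, and 0 in DB#1 and DB#3 (2 and 3 at an unadjusted p under 0.05). The gene called in DB#2 was Ppargc1a. This transcriptional coactivator of mitochondrial genes is a target of CREB and, in pigment cells, of Mitf. It read 3.52, 3.33 and 3.19 in DB#2, above every other melanoma array, and 0.72, -0.31 and -0.46 in M, a difference of 3.37 ± 0.37 (SE, adjusted p = 4.60e-06 with limma). DB#2 exceeded D by 2.89 ± 0.34 (adjusted p = 1.06e-05). The other probe of the gene gave 3.47 and 2.90. Nr4a2, an orphan nuclear receptor, was higher in D than in M by 0.45 ± 0.11 (SE, adjusted p = 0.0259 with limma), and the call was lost when any of 4 of the 7 arrays was left out (M replicate 1 or 2, D replicate 1 or 2) and under 6 of 12 other alternatives. In DB#2 against D, 2 of 9 targets were called, Ppargc1a higher and Nr4a2 lower. The median of the list there was -0.37 against 0.0002 over all genes. Against M the list median was above that of all genes in both lines, at 0.45 against 0.0088 in D and 0.11 against 0.0031 in DB#2. Nr4a2 differed by -0.61 ± 0.11 (SE, adjusted p = 0.00130 with limma), a call lost without scaling and in a fit of that pair alone. None of the 10 CREB factors and coactivators was called against M by limma in any of the 4 derived lines, with 2, 0, 1 and 0 of 10 at an unadjusted p under 0.05 in D, DB#1, DB#2 and DB#3. With slide as a block Crebbp was called in D and Crtc2 in DB#2. In DB#2 against D limma called 1 of 10, Crtc2, with a difference of -0.46 ± 0.12 (SE, adjusted p = 0.0197). That call was kept under 6 of 12 other alternatives and for 4 of 7 arrays left out in turn.

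**Figure D4:**
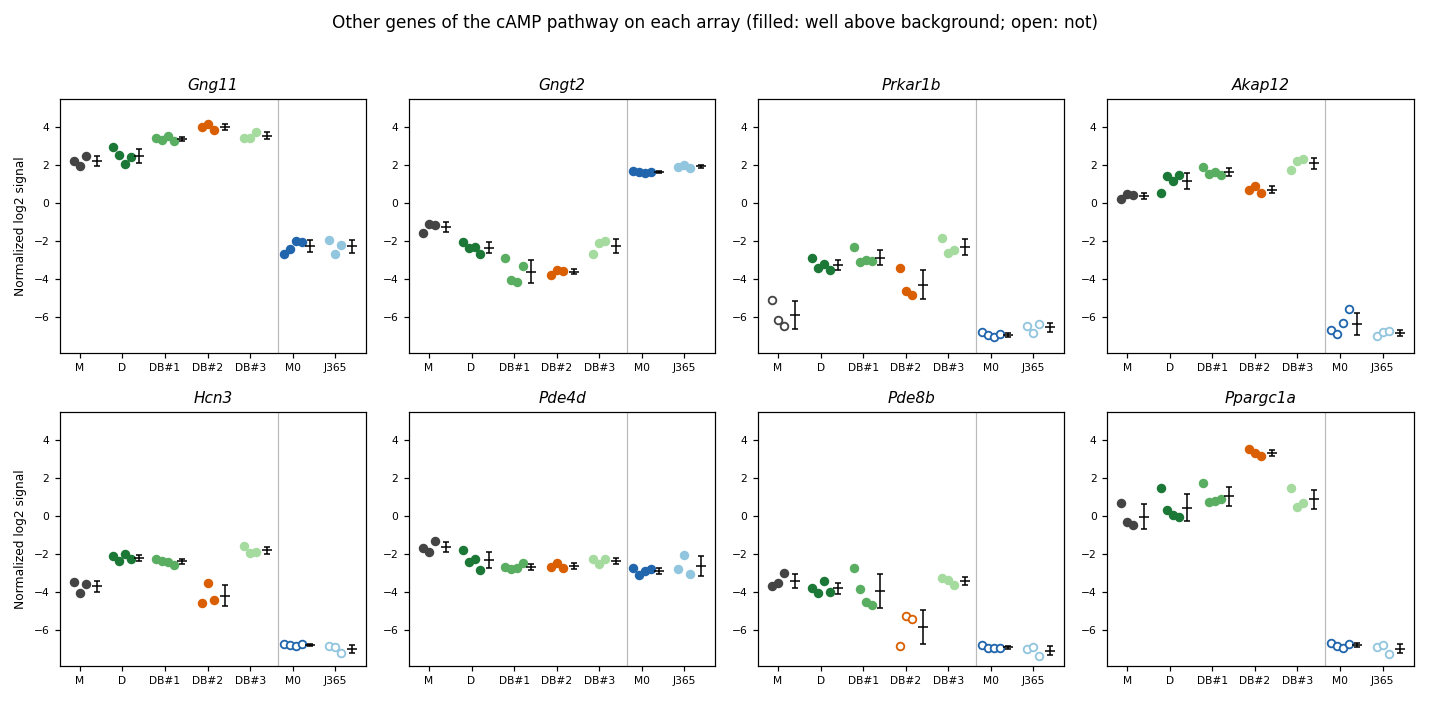
Normalized log2 signal (vertical axis) of 8 other genes of the cAMP pathway on every array, by line (horizontal axis), with filled points well above background, open points not, and black bars for the mean and SD. Pde8b falls out of the measurable range in DB#2 and Prkar1b in M, Ppargc1a is highest in DB#2 (3.19 to 3.52), and Hcn3 is raised in D, DB#1 and DB#3 but not in DB#2.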

How the data were processed

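One-colour cyanine 3 arrays of 24 RNA samples were deposited as scanner files of Agilent Feature Extraction 10.7.3.1 (per the labels). The authors deposited the processed signal, an intensity already corrected for background, and a value table whose 1511424 values equalled it. The authors' GeneSpring normalization and tests are not stated in enough detail to repeat. On each array the log2 of the 75th percentile of the 59305 non-control spots was subtracted from the log2 signal. Spots of a probe were averaged, spots marked as outliers were left out, which removed 117 of 56605 probes, and no spot was saturated. RefSeq transcripts named the probes (29339 of 29638 NM accessions matched), and the probe brightest over all arrays stood for a gene. Depth has no meaning here, and 3 to 4 arrays a line limit the precision.

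limma 3.58.1 (R 4.3.3) was fitted to all 24 arrays with line as the term (17 residual degrees of freedom). A gene was tested where it was well above background on every array of 1 of the lines compared, variances were moderated over the genes tested, and a call needed a Benjamini-Hochberg adjusted p below 0.05. The 3 slides, of 8 arrays each, all held every line. The script was tested on simulated data. The members and gene lists were chosen with earlier results of these data known.

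Named genes were the 9 cyclases and, per list and direction against M and in J365 against M0, up to 2 genes with the largest change among those called and above background on every array of both lines. They were also the 5 genes most correlated with Adcy2 and its 3 nearest genes on each side. Blood, fibroblast, endothelial, brain and melanocyte markers were the other lists. The fibroblast and endothelial means on D replicate 3 were -3.43 and -4.23, against at most -4.60 and -5.84 on the other 16 melanoma arrays. Alternatives were another scaling, normexp on the median and local background signals (the files hold no mean signal), no filter, blocks for slide and replicate number, fits of single pairs of lines, and leaving out each array.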

Additional observations from a re-analysis of the deposited data

Results flagged for a closer look

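The signals of 3 cyclases on D replicate 3 lay apart from the other D arrays, with a gap to the nearest of them that, as a share of the group's range, exceeded Dixon's 95% critical value for 4 samples. Adcy2, for which this is a description only, read -2.71 there against -3.40 to -3.29 on the other D arrays, inside the range of the M arrays (-3.47 to -2.46). Adcy4 read -1.62 against -7.43 to -6.52, and Adcy5 read -2.02 against -5.77 to -5.56. The criterion was applied to the 17 groups of 4 arrays in which at least 1 array was well above background. Chance alone sets apart about 1 group in 20 where groups are not chosen by their values. The Adcy4 and Adcy5 groups of D entered through replicate 3 alone, so that rate does not hold for them. Groups of the same line also share their arrays. This is the array with 90.3% of spots well above background, on which the blood, fibroblast, endothelial and brain cell markers were also raised, and the part of these in the 3 signals was not tested.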

How the results depend on the processing

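Of 115 counts of members called, 106 were unchanged over the 12 alternatives other than leaving out an array, and no called member changed direction. The untested Adcy2 differences did: with quantile normalization DB#1 against D went from -0.39 to 0.21 and DB#3 against D from -0.24 to 0.38, the difference between models went from 0.07 to -0.63, and D against M, -0.13, ran from -0.67 to 0.02 over these alternatives and reached 0.16 without M replicate 3. Normexp background correction gave 1 in DB#1 against M (Adcy9) and 2 in DB#2 against D (Adcy3, Adcy6). Without scaling, 0 were called in DB#2 against M. Without the filter on dim probes, 0 were called in DB#2 against M and 2 in DB#2 against D (Adcy1, Adcy6). A fit of the arrays of the lines compared alone called 1 in DB#1 against M (Adcy9), 0 in DB#2 against M and 0 in DB#2 against D. Leaving out 1 array gave 0 to 1 in DB#2 against M and 0 to 1 in the difference between models, and no other count moved. The replicate block called 2 members in DB#2 against D (Adcy3, Adcy6) and changed no other count, but it is not clear that the numbers pair the samples. Deviations of same-numbered arrays correlated at 0.0783 on average over 49 pairs, with 23 over 0.1. The average was 0.495 over 81 same-slide pairs, and -0.254 over 127 pairs that shared neither, with 36 over 0.1. Some same-numbered pairs also shared a slide, so these values do not settle a pairing by number. The causes were not tested. With normexp the M against M0 differences were 1.46 for Adcy3 and 3.92 for Adcy9, and none of the 5 calls there was lost. The alternatives chosen after seeing the data were the percentile over probes, the variance prior over all genes, and leaving out D replicates 1 and 3 together.

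Over all genes, calls moved by more than 1.5 times in these cases. With slide as a block they rose from 719 to 1169 in D against M, from 893 to 1392 in DB#1, 858 to 1396 in DB#2 and 646 to 976 in DB#3 against M, from 1611 to 2750 in DB#2 against D, and from 391 to 677 in J365 against M0. Without the filter they fell to 461 in D against M, 529 in DB#2 against M, 998 in DB#2 against D, and from 76 to 49 in DB#3 against D. The fit of single pairs gave 153 in D against M, 332 in DB#2 against D, 27 (from 97) in DB#1 against D, 9 in DB#3 against D, 248 in J365 against M0 and 289 (from 544) in the difference between models. The replicate block gave 218 in J365 against M0, and no scaling gave 58 in DB#1 against D. Leaving out 1 array gave 397 and 415 in D against M (M replicate 2, 3), 515 and 567 in DB#2 against M (M replicate 2, DB#2 replicate 2), 63 in DB#1 against D (DB#1 replicate 1), 1041 and 915 in DB#2 against D (DB#2 replicate 2, 3), 45, 36 and 37 in DB#3 against D (DB#3 replicate 3, 4, 5), 616 and 255 in J365 against M0 (M0 replicate 4, J365 replicate 4), and 832 in the difference (D replicate 1). Without scaling the median over all genes shifted by 0.158 in D against M, 0.248 in DB#2 against M, -0.176 in DB#3 against D, 0.172 in J365 against M0 and 0.176 in M against M0. Signal near background limits Adcy1, Adcy5, Adcy8 and the dimmer probes of Adcy2 and Adcy6.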
